A study of Mus musculus with 8 samples.

Results

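Transcripts of 8 enzymes of mitochondrial fatty acid oxidation and of Pdk4, the pyruvate dehydrogenase kinase 4 gene, were compared between enterocytes of IE-Cpr-null mice and of wild-type (WT) littermates. All 9 genes (Pdk4, Cpt1a, Cpt2, Acadvl, Acadm, Acadl, Acaa2, Hadha and Hadhb) were chosen by name. They were represented by 16 of the 18443 probe sets of the array table, counting every probe set whose only gene symbol was one of these. Enterocytes, the absorptive cells of the small intestine, came from male C57BL/6 mice aged 2.5 to 3.0 months that ate a standard diet. In IE-Cpr-null mice the intestinal epithelium is without Cpr, the NADPH-cytochrome P450 reductase that feeds electrons to microsomal P450 enzymes. In the published line the deletion is made by a Cre recombinase under the villin promoter. The labels name neither the driver nor the alleles carried by the WT littermates, and the transcript of the deleted gene is not analysed here. There were 4 arrays and 8 mice per genotype. Every array was loaded with a pool of RNA from 2 mice, and the errors given are therefore those between pools.

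Long-chain fatty acids enter the mitochondrion through the carnitine shuttle, are shortened by repeated rounds of dehydrogenation, hydration, a second dehydrogenation and thiolytic cleavage, and leave as acetyl-CoA. Pyruvate dehydrogenase makes acetyl-CoA from carbohydrate instead, and its kinases switch it off by phosphorylation. Many genes of both routes, Pdk4 and Cpt1a among them, are known targets of peroxisome proliferator-activated receptors (PPARs) and respond to fasting.

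All values below are log2 values from which the median of the 4 WT arrays had been taken in each probe set. No level of expression was therefore known, genes could not be ranked by abundance, and a difference is IE-Cpr-null minus WT on the log2 scale. In bulk RNA, fewer cells of a type and less RNA per cell cannot be told apart. Enterocyte markers (10 of 12 measured) had similar list means, between -0.085 and 0.031 on IE-Cpr-null arrays and between -0.13 and 0.039 on WT arrays. Markers of other cells were uneven. The pancreatic acinar list (9 of 11 measured) averaged -2.25, -5.35, -5.47 and -5.36 on IE-Cpr-null arrays 1 to 4, against -0.68, 1.69, -5.41 and 0.69 on WT arrays 1 to 4, so that WT array 3 lay with the IE-Cpr-null arrays. The muscle and stroma list (10 of 10) stood at 4.69 on IE-Cpr-null array 1 and at 1.97 on WT array 2, and between -0.44 and 0.22 elsewhere, and those 2 arrays are called muscle-rich below. The hepatocyte list (10 of 10) stood at 6.06 and 3.74 on IE-Cpr-null arrays 2 and 3, the hepatocyte-rich arrays, and between -0.15 and 0.23 elsewhere. Whether any of these markers was near 0 in level cannot be read from centred values.

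Most of the 9 genes had lower values in IE-Cpr-null enterocytes. Differences were -0.45 or lower for Pdk4, the 3 Acaa2 probe sets and 1 of the 3 Cpt1a probe sets. In the other probe sets, among them the rest of Cpt1a, the dehydrogenases and the trifunctional protein, they lay between -0.26 and 0.053. Of the 16 probe sets, 14 had a difference below 0, against 42.5% of all probe sets, and the median difference was -0.15, against 0.016 over all probe sets. None (0 of 16) passed an adjusted p of 0.05 in limma, where 0.0217% of the table passed. At an unadjusted p under 0.05, 8 were lower and 0 higher, where 4.47% of all probe sets were lower and 2.92% higher. Every IE-Cpr-null array lay below every WT array in 4 of the 16, against 2.47% of all probe sets, namely 1 probe set each of Pdk4, Cpt1a, Acadvl and Acaa2. The reverse held in 0 of the 16, against 1.64%. Lower values of those 4 genes were known when the genes were grouped, so these counts are a description. The shares over all probe sets mix probe sets of any brightness, and the 16 hold up to 3 probe sets of a gene, which are not separate results. The count of 8 was 3 with quantile normalization, 11 with array weights, 5 with the replicate block, 4 without the muscle-rich arrays and 5 without WT array 1, 2 or 4. In the other alternatives it was between 6 and 9. The share of all probe sets at that p was not counted per alternative, so these counts have no background. Array weights also raised the calls at an adjusted p of 0.05 over the whole table from 4 to 741. Without WT array 3 the IE-Cpr-null arrays lay below all WT arrays in 10 of the 16, against 4.70% of all probe sets, and without the hepatocyte-rich arrays in 8 of the 16, against 7.53%. Leaving out any array can only keep or raise this count, and WT array 3 was the lowest WT array in 11 of the 16. Without the muscle-rich arrays the count was 5, against 6.90% of all probe sets, and with any other single array left out it was 4 or 5.

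**Figure D1:**
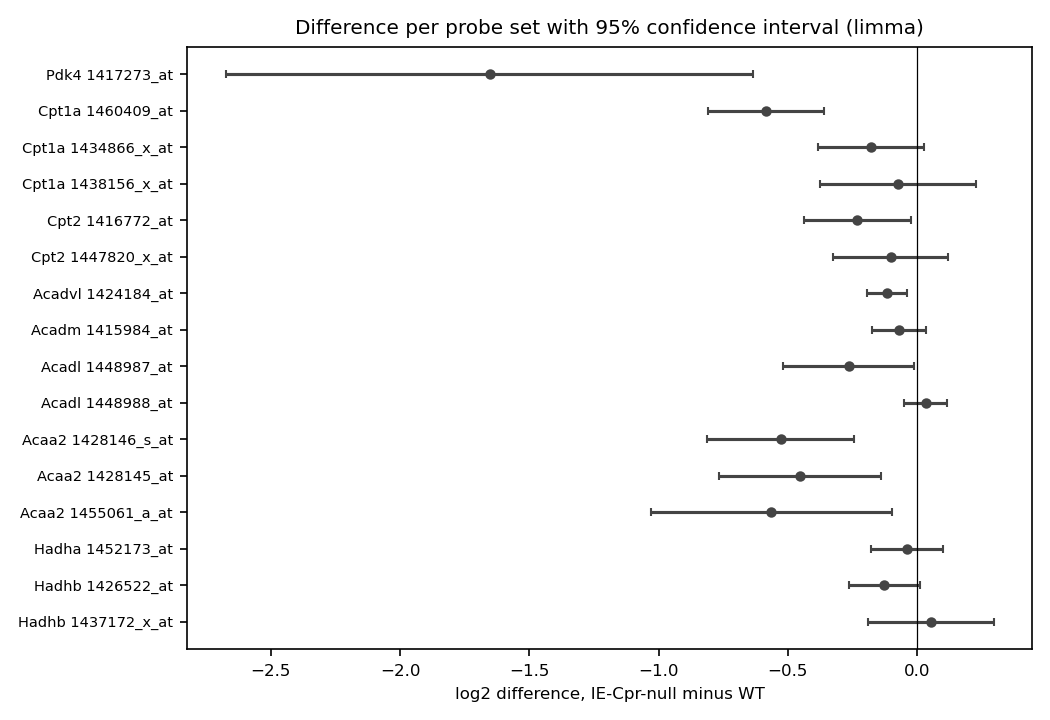
The horizontal axis gives the log2 difference, IE-Cpr-null minus WT, for each of the 16 probe sets, with bars for the limma 95% confidence interval (n = 4 arrays per genotype, unadjusted). Pdk4 lies farthest from 0 at -1.65 with the widest interval, and 2 probe sets, of Acadl and Hadhb, lie above 0.

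In Pdk4, Cpt1a and Acadvl the groups separated in at least 1 probe set. The 250 bases before the RefSeq transcription start of each are printed here for that reason (GRCm38.p6, 5′ to 3′ on the gene's strand), as the stretch in which a shared sequence element could be looked for. For Cpt1a the table's start site lies 975 bases inside the gene's RefSeq span, so its window is upstream of that start and not of the whole gene. The groups also separated in 1 Acaa2 probe set, but no Acaa2 sequence is used here. Capitals mark the hexamer AGGTCA, the core that nuclear receptors including PPARs bind, on either strand.
Pdk4 (chr6:5496279-5496528, minus strand): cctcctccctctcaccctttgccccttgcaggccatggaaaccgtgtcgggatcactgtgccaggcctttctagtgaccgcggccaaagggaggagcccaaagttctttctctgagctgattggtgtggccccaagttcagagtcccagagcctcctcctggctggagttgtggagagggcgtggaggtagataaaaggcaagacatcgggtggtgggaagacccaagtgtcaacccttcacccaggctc
Cpt1a (chr19:3323051-3323300, plus strand): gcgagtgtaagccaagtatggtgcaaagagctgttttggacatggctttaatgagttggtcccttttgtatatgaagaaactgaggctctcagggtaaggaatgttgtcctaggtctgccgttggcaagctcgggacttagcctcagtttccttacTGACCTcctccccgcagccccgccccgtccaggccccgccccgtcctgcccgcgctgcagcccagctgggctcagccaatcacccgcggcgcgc
Acadvl (chr11:70015429-70015678, minus strand): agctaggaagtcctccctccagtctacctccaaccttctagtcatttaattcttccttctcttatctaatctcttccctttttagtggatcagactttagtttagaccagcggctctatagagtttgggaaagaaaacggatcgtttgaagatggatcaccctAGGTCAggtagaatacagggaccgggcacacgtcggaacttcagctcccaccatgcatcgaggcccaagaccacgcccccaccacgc

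The hexamer was found once in the Cpt1a window, reading as TGACCT with its first base 94 bases before that inner start, and once in the Acadvl window, 87 bases before its start. It was not found in the Pdk4 window. Of the 8 windows searched (Acaa2 was not used), 3 held it, the third being that of Acadm. The windows of Hadha and Hadhb share 228 of their 250 bases, so the 8 are not separate stretches. Over all 32851 windows of this length in the RefSeq table the share was 14.0%. The direct repeat AGGTCANAGGTCA, the consensus element of PPAR with RXR, and the forkhead core GTAAACA were found in 0 of the 8, against 0.0335% and 3.17% of all windows. These are matches of letters in a short window, searched on both strands, and each direct repeat also counts as a hexamer.

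Pdk4 had the largest difference of the 9 genes. The kinase it encodes phosphorylates the pyruvate dehydrogenase complex and so spares carbohydrate when fat is burned. Its only probe set (1417273_at) read -0.87, -1.59, -2.49 and -1.49 on IE-Cpr-null arrays 1 to 4, against 0.94, -0.76, -0.18 and 0.18 on WT arrays 1 to 4. The arrays did not overlap, but the gap between the lowest WT array, array 2, and the highest IE-Cpr-null array, array 1, was only 0.106. These are also the muscle-rich arrays, and the adipocyte list (4 of 7 measured) was highest on them too, at 1.74 on IE-Cpr-null array 1 and 0.45 on WT array 2, and between -0.033 and 0.032 elsewhere. The part of these markers in the Pdk4 values was not tested. Means were -1.61 ± 0.67 in IE-Cpr-null and 0.046 ± 0.71 in WT (SD, n = 4 each), and the difference was -1.65 (95% interval -2.67 to -0.63, 31.8% of WT). It did not pass in limma (unadjusted p = 0.00604, adjusted p = 0.378). Its spread was large in both groups: only 3.10% of probe sets had a larger SD in IE-Cpr-null and 1.33% in WT. With quantile normalization the difference was -1.09, and without the muscle-rich arrays -2.17. It stood at -1.22 without the hepatocyte-rich arrays, 2 and 3, which had the lowest Pdk4 values of IE-Cpr-null (-1.59 and -2.49).

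In the carnitine shuttle, Cpt1a encodes the carnitine palmitoyltransferase of the outer mitochondrial membrane, the main control point of long-chain fatty acid entry. Its probe set 1460409_at read -0.55, -0.80, -0.61 and -0.59 on IE-Cpr-null arrays 1 to 4, against 0.014, 0.095, -0.30 and -0.014 on WT arrays 1 to 4. All 4 IE-Cpr-null arrays lay close together, and WT array 3 was the WT array nearest to them. The difference was -0.59 (95% interval -0.81 to -0.36, 66.6% of WT), the smallest unadjusted p of the 16 at 0.000375, with a limma adjusted p of 0.19. The other probe sets of Cpt1a, both of the x type whose probes can also match other transcripts, showed less. Probe set 1434866_x_at read -0.0013, -0.11, -0.42 and -0.25 on IE-Cpr-null arrays 1 to 4, against 0.00097, -0.00097, -0.093 and 0.021 on WT arrays 1 to 4, so that IE-Cpr-null array 1 lay inside the WT range. Its difference was -0.18 (95% interval -0.38 to 0.026). Probe set 1438156_x_at ran from -0.36 to 0.15 in IE-Cpr-null and from -0.26 to 0.069 in WT, with a difference of -0.074 (95% interval -0.38 to 0.23). The size of the Cpt1a difference thus depended on the probe set.

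Cpt2, the inner-membrane transferase that completes the shuttle, had a smaller difference. Probe set 1416772_at read -0.43, -0.063, -0.37 and -0.24 on IE-Cpr-null arrays 1 to 4, against 0.0094, 0.0017, -0.19 and -0.0017 on WT arrays 1 to 4. WT array 3 lay below IE-Cpr-null array 2, so the groups overlapped, and the difference was -0.23 (95% interval -0.44 to -0.023, limma adjusted p = 0.613). The x-type probe set 1447820_x_at was between 0.011 and 0.047 on IE-Cpr-null arrays 1, 2 and 4 and -0.27 on array 3, against -0.042 to 0.26 in WT (difference -0.10, 95% interval -0.32 to 0.12).

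The acyl-CoA dehydrogenases, which start each round of oxidation and differ in the chain length they accept, differed by small amounts. Acadvl, the very long-chain enzyme of the inner membrane, read -0.14, -0.067, -0.10 and -0.16 on IE-Cpr-null arrays 1 to 4, against 0.015, 0.0091, -0.0091 and -0.019 on WT arrays 1 to 4 (probe set 1424184_at). Every IE-Cpr-null array was below every WT array, on a narrow scale: means were -0.12 ± 0.041 in IE-Cpr-null and -0.00096 ± 0.016 in WT (SD, n = 4 each). The difference of -0.12 (92.3% of WT) did not pass (95% interval -0.20 to -0.037, limma adjusted p = 0.439).

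Acadl, the long-chain dehydrogenase, had probe sets with different results. Probe set 1448987_at read -0.33, -0.16, -0.25 and -0.48 on IE-Cpr-null arrays 1 to 4, against 0.14, 0.053, -0.30 and -0.053 on WT arrays 1 to 4, with WT array 3 inside the IE-Cpr-null range and a difference of -0.26 (95% interval -0.52 to -0.011, limma adjusted p = 0.659). Probe set 1448988_at lay between 0.0035 and 0.063 in IE-Cpr-null and between -0.050 and 0.045 in WT, a difference of 0.033 (95% interval -0.051 to 0.12). It ranked the arrays in the same order as the medians of all probe sets did. Those medians were 0.036, 0.019, -0.013 and 0.014 on IE-Cpr-null arrays 1 to 4, and 0.031, 0.015, -0.025 and -0.017 on WT arrays 1 to 4. Whether this probe set measured Acadl above background is unknown. Acadm, the medium-chain dehydrogenase, read -0.13, -0.035, 0.018 and -0.13 on IE-Cpr-null arrays 1 to 4, against -0.013, -0.037, 0.043 and 0.013 on WT arrays 1 to 4 (probe set 1415984_at). Its groups overlapped, and its difference was -0.069 (95% interval -0.17 to 0.036).

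Hadha and Hadhb encode the alpha and beta subunits of the mitochondrial trifunctional protein, which carries out the hydration, the second dehydrogenation and the cleavage of long-chain substrates. In the RefSeq table their start sites face away from each other with 272 bases between them. Hadha read -0.13, 0.050, -0.023 and -0.11 on IE-Cpr-null arrays 1 to 4, against 0.074, 0.013, -0.13 and -0.013 on WT arrays 1 to 4 (probe set 1452173_at). The groups overlapped widely, with a difference of -0.040 (95% interval -0.18 to 0.10). Hadhb probe set 1426522_at ran from -0.22 to -0.045 in IE-Cpr-null and from -0.100 to 0.094 in WT (difference -0.13, 95% interval -0.26 to 0.010). Its x-type probe set 1437172_x_at ran from 0.015 to 0.24 in IE-Cpr-null and from -0.030 to 0.38 in WT (difference 0.053, 95% interval -0.19 to 0.30). None of these 3 probe sets reached an unadjusted p of 0.05.

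Acaa2, the medium-chain 3-ketoacyl-CoA thiolase of the mitochondrial matrix, was lower by similar amounts in all 3 of its probe sets. Probe set 1428146_s_at read -0.67, -0.77, -0.40 and -0.55 on IE-Cpr-null arrays 1 to 4, against -0.036, 0.036, -0.38 and 0.10 on WT arrays 1 to 4. The groups did not overlap, but WT array 3 lay just above IE-Cpr-null array 3 and far below the other WT arrays. The difference was -0.53 (95% interval -0.81 to -0.24, 69.4% of WT, limma adjusted p = 0.334). This probe set is of the s type, whose probes can match several transcripts. Probe set 1428145_at read -0.69, -0.71, -0.35 and -0.51 on IE-Cpr-null arrays 1 to 4, against 0.0025, -0.0025, -0.47 and 0.028 on WT arrays 1 to 4, and probe set 1455061_a_at read -0.94, -0.98, -0.42 and -0.51 on IE-Cpr-null arrays 1 to 4, against 0.048, -0.029, -0.66 and 0.029 on WT arrays 1 to 4. In both, WT array 3 was below the highest IE-Cpr-null array, and the differences were -0.45 (adjusted p = 0.451) and -0.56 (adjusted p = 0.56, both limma).

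**Figure D2:**
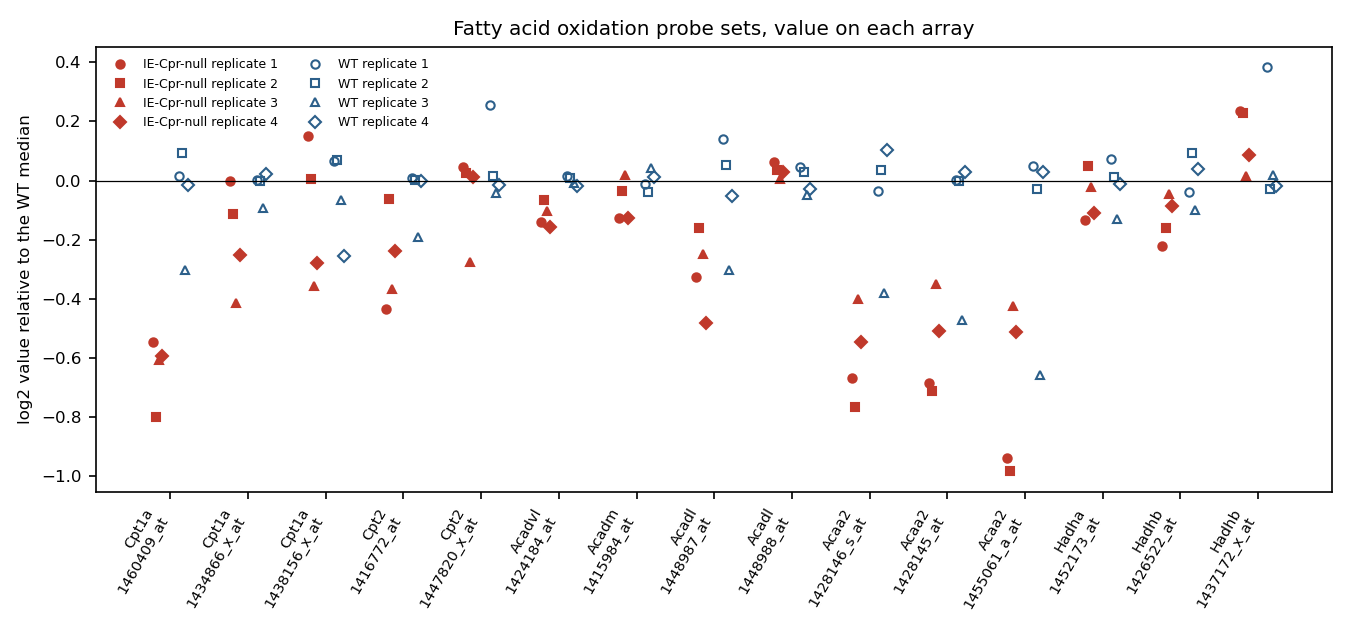
The vertical axis gives the log2 value relative to the WT median on each array, for the 15 probe sets of the 8 oxidation genes, with filled red symbols for the 4 IE-Cpr-null arrays and open blue symbols for the 4 WT arrays. In Cpt1a 1460409_at the groups stand apart, and in the 3 Acaa2 probe sets WT array 3 (open triangle) lies among or next to the IE-Cpr-null arrays.

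WT array 3 was low in several oxidation genes. It was the lowest WT array in 11 of the 16 probe sets and below 0 in 14, while WT array 1 was below 0 in 3. Averaged over the 8 oxidation genes without Pdk4, with probe sets of a gene averaged first, values were -0.20, -0.15, -0.18 and -0.20 on IE-Cpr-null arrays 1 to 4, against 0.063, 0.015, -0.14 and -0.011 on WT arrays 1 to 4. WT array 3 was thus closer to the IE-Cpr-null arrays than to the other WT arrays in this mean, though above all of them. It was also the WT array low in pancreatic acinar transcripts (-5.41). It had the highest WT means of crypt and cycling markers (0.54, others -0.13 to 0.087), macrophage and dendritic markers (0.46, others -0.19 to -0.037) and goblet and Paneth markers (0.30, others -0.17 to 0.022). On IE-Cpr-null arrays these lists ran from -0.55 to 0.75, from -0.68 to -0.13 and from -0.49 to 0.34. IE-Cpr-null array 1, whose acinar mean was the highest of its genotype (-2.25), had an oxidation mean of -0.20, about that of IE-Cpr-null array 4 with -5.36. The lowest WT value of Pdk4 was on array 2, not on array 3. The part of these marker differences in the results was not tested.

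**Figure D3:**
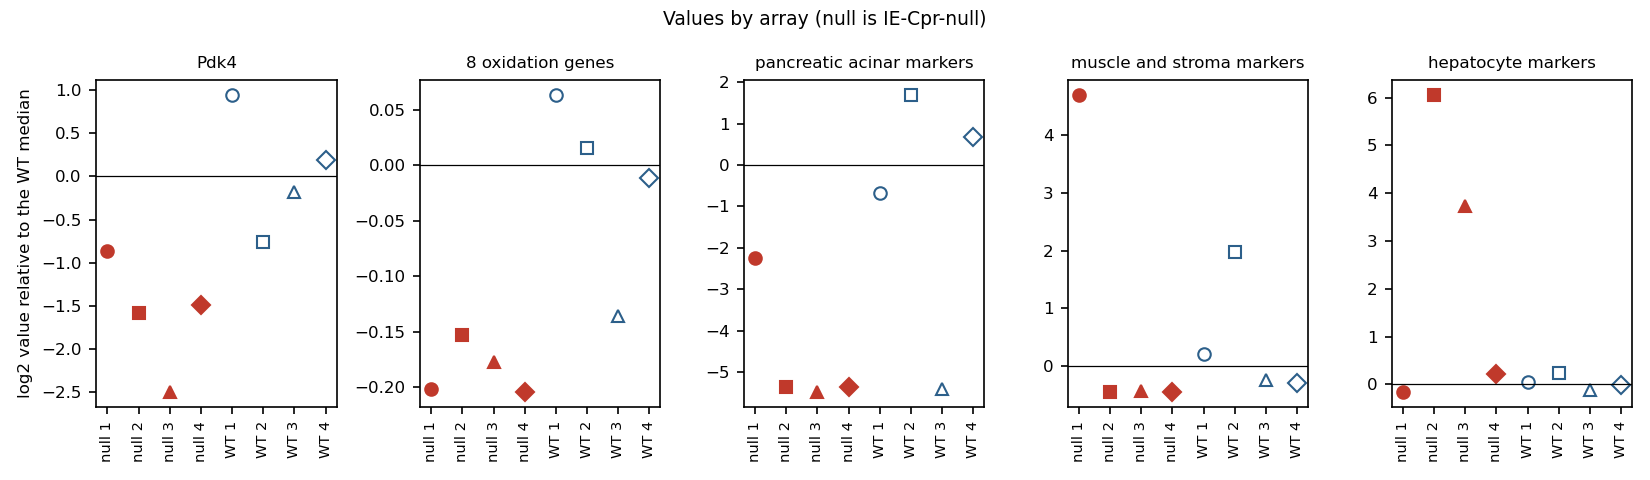
Each panel gives log2 values relative to the WT median on the 8 arrays, IE-Cpr-null (null, red filled) left of WT (blue open), for Pdk4, the mean of the 8 oxidation genes and the means of 3 marker lists, each on its own vertical scale. WT array 3 stands at -0.14 for the oxidation genes and at -5.41 for the acinar markers, and the highest IE-Cpr-null Pdk4 value is on the array with the highest muscle and stroma mean (4.69).

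The other genes of mitochondrial beta-oxidation also tended to lower values. In this list 23 of 28 genes were measured by 33 probe sets, 24 lower and 9 higher, with a median difference of -0.087 against 0.016 over all probe sets. Of all probe sets, 42.5% were lower. None (0) of the 33 passed in limma, against 0.0217% of the table. At an unadjusted p under 0.05, 5 were lower and 0 higher, against 4.47% and 2.92% of all probe sets. In those 5 every IE-Cpr-null array was below every WT array, which held in 2.47% of all probe sets. Echs1, the enoyl-CoA hydratase of short chains, differed by -0.17 (SE 0.0348, limma adjusted p = 0.291). Its values were -0.16, -0.20, -0.20 and -0.15 on IE-Cpr-null arrays 1 to 4, against 0.024, 0.011, -0.065 and -0.011 on WT arrays 1 to 4. Acot13, an acyl-CoA thioesterase, differed by -0.33 (SE 0.0738), and Eci2, an enoyl-CoA isomerase, by -0.24 (SE 0.0831). Acad9, a dehydrogenase that also assembles respiratory complex I, differed by -0.40 in 1 probe set and by -0.12 in another. Acad10, a related dehydrogenase, differed by -0.57 (SE 0.238), with -1.17 on IE-Cpr-null array 1. The short-chain dehydrogenase Acads differed by -0.13 (SE 0.108). The carnitine-acylcarnitine carrier Slc25a20, which links Cpt1a to Cpt2, had values in the opposite direction, with 0.19 (SE 0.139) and 0.19 (SE 0.162). For Hadh, the short-chain hydroxyacyl-CoA dehydrogenase, 3 probe sets gave 0.22, -0.039 and -0.018, none with an unadjusted p under 0.05.

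Genes of the peroxisomal beta-oxidation list, which also holds other peroxisomal genes such as the alpha-oxidation gene Phyh, were evenly split. Of their 28 probe sets (19 of 21 genes), 14 were lower and 14 higher, the median difference was 0.0035, and 0 passed in limma (1 higher and 1 lower at an unadjusted p under 0.05). The shares of all probe sets were 42.5% lower, 0.0217% passing, and 2.92% higher and 4.47% lower at that unadjusted p. Acaa1a, a peroxisomal thiolase, differed by 0.12 (SE 0.0369) in 1 probe set, where every IE-Cpr-null array was above every WT array, and by 0.060 in the other. That order held in 1.64% of all probe sets. The reverse order held in 0 of the 28, against 2.47%. Acot4, a peroxisomal thioesterase, differed by -0.35 (SE 0.146) and -0.29 (SE 0.153). The 4 probe sets of Scp2, a sterol carrier with thiolase activity, gave 0.20 (SE 0.0902), 0.061, 0.030 and -0.011. Phyh, the phytanoyl-CoA hydroxylase, differed by -0.10 (SE 0.047) and the racemase gene Amacr by -0.11 (SE 0.0682).

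Among PPAR receptors, partners and targets, Ppargc1a, the coactivator PGC-1alpha of mitochondrial gene expression, was lower in each of its 5 probe sets. Its differences were -0.36, -0.56, -0.32, -0.38 and -0.38, with limma adjusted p from 0.252 to 0.412, and in each of the 5 every IE-Cpr-null array was below every WT array. That order held in 2.47% of all probe sets, and the 5 measure the same gene on the same arrays. Probe set 1456395_at read -0.37, -0.50, -0.20 and -0.42 on IE-Cpr-null arrays 1 to 4, against 0.057, -0.10, 0.020 and -0.020 on WT arrays 1 to 4. Over the whole list (21 of 25 genes, 32 probe sets), 18 were lower and 14 higher, the median difference was -0.0098, and 0 passed in limma (8 lower and 2 higher at an unadjusted p under 0.05). Over all probe sets the shares were 42.5% lower and 0.0217% passing, and 4.47% lower and 2.92% higher at that unadjusted p. The 8 include the 5 of Ppargc1a, and the 2 are both of Txnip, described below. Angptl4, a secreted inhibitor of lipoprotein lipase, read -0.72, -0.95, -1.65 and -1.89 on IE-Cpr-null arrays 1 to 4, against 1.04, -1.12, -0.34 and 0.34 on WT arrays 1 to 4 in probe set 1417130_s_at. Of the WT arrays, only array 2 lay inside the IE-Cpr-null range, and the difference was -1.28 (SE 0.483, limma adjusted p = 0.596). This probe set is of the s type, whose probes can match several transcripts. The other Angptl4 probe set differed by 0.048, and like the Acadl probe set 1448988_at it ranked the arrays as the medians of all probe sets did. Slc27a2, a very long-chain acyl-CoA synthetase and fatty acid transporter, differed by -0.43 (SE 0.116). Fbp1, a gluconeogenic phosphatase, differed by -0.31 (SE 0.125). Txnip, a thioredoxin-binding regulator of glucose uptake, was higher by 0.31 and 0.31 in its probe sets (limma adjusted p = 0.339 and 0.416). Ppara itself differed by -0.52 (SE 0.363) with widely spread WT arrays, from -1.28 to 0.15.

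The target of Pdk4, the pyruvate dehydrogenase complex, and its other kinases also had mostly lower values. Of 13 probe sets for 8 of 16 genes, 12 were lower and 1 higher, with a median difference of -0.17, and 0 passed in limma (5 lower and 0 higher at an unadjusted p under 0.05). Of all probe sets, 42.5% were lower and 0.0217% passed, with 4.47% lower and 2.92% higher at that unadjusted p. Every IE-Cpr-null array lay below every WT array in 3 of the 13, 1 each of Dlat, Pdha1 and Pdk2, against 2.47% of all probe sets. Dlat, the acetyltransferase core subunit, read -0.44, -0.85, -0.69 and -0.60 on IE-Cpr-null arrays 1 to 4, against 0.10, 0.019, -0.019 and -0.086 on WT arrays 1 to 4 in probe set 1452005_at. The groups lay far apart relative to their spread, with a difference of -0.65 (SE 0.0882, limma adjusted p = 0.125, and 0.0493 without IE-Cpr-null array 1), but its other probe sets differed by -0.27 and -0.30 with overlapping arrays. Pdha1, the catalytic E1 alpha subunit, differed by -0.17 (SE 0.0421) and -0.17 (SE 0.0815), and Pdhb, the E1 beta subunit, by -0.17 (SE 0.0815) and -0.17 (SE 0.0888). The other kinases differed less than Pdk4 in size: Pdk2 by -0.10 (SE 0.0323), Pdk1 by -0.12 and -0.027, and Pdk3 by 0.10 (SE 0.13). The pyruvate carrier subunit Mpc1 differed by -0.094 (SE 0.0609).

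Ketone body genes, which use or make acetoacetate from acetyl-CoA, were few. The whole table had 42.5% lower and 0.0217% passing, with 4.47% lower and 2.92% higher at an unadjusted p under 0.05. Of 11 probe sets for 5 of 8 genes, 7 were lower and 4 higher, with a median of -0.097, and 0 passed in limma (3 lower and 0 higher at an unadjusted p under 0.05). Those 3 were the probe sets of Acat1, the mitochondrial acetoacetyl-CoA thiolase, at -0.33 (SE 0.0554, limma adjusted p = 0.203), -0.29 and -0.25. In the first 2 of them, and in no other of the 11, every IE-Cpr-null array lay below every WT array, against 2.47% of all probe sets. Bdh1, the hydroxybutyrate dehydrogenase, differed by -0.12 and -0.11. The monocarboxylate transporter genes Slc16a1 and Slc16a6 differed by -0.081 and -0.10. The 4 probe sets of Oxct1, the ketone-using transferase, lay between 0.051 and 0.12.

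**Figure D4:**
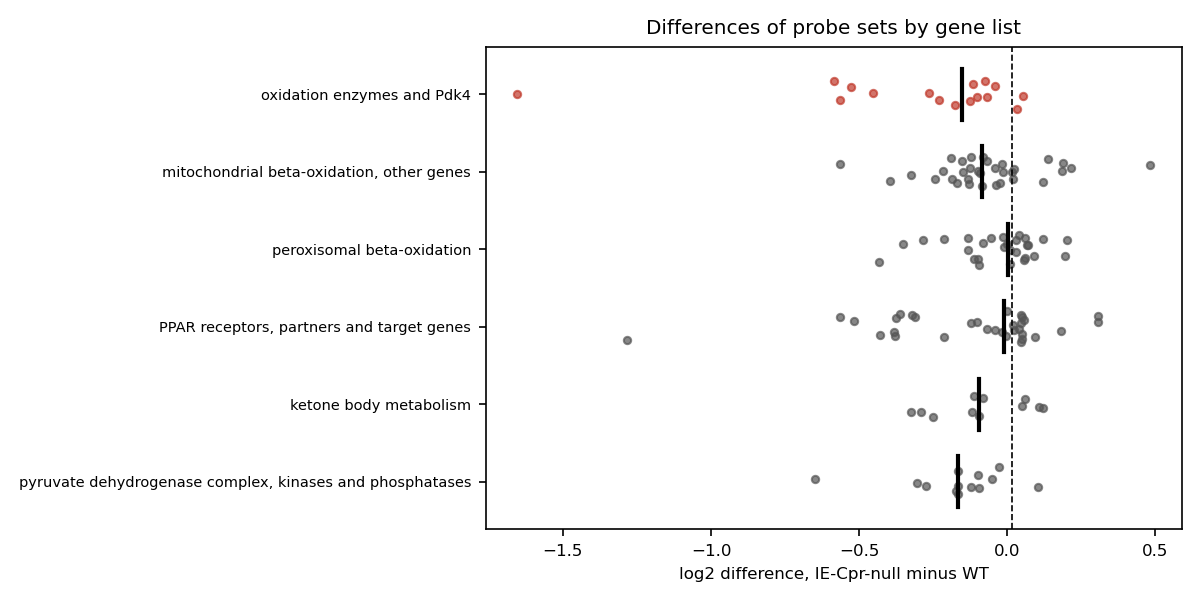
The horizontal axis gives the log2 difference, IE-Cpr-null minus WT, of each probe set (points, spread vertically only for clarity) in the oxidation enzymes with Pdk4 (red) and 5 other lists (grey), with a thick line at each list's median and a dashed line at the median of all probe sets (0.016). The medians run from -0.17 for the pyruvate dehydrogenase list to 0.0035 for the peroxisomal beta-oxidation list, and Pdk4 and Angptl4 are the points beyond -1.

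The probe sets nearest to Pdk4 were sought by the smallest root mean square difference of log2 values over the 8 arrays. Angptl4 was the nearest, at 0.429. It shared with Pdk4 a high WT array 1 (1.04, with 0.94 for Pdk4) and a low WT array 2 (-1.12, with -0.76 for Pdk4). Sgk1, a serum- and glucocorticoid-regulated kinase, followed at 0.54, also with its lowest WT value on array 2 (-0.67). Next came Greb1 at 0.555, the tetraspanin gene Tspan12 at 0.581, Skp2, a substrate receptor of a ubiquitin ligase, at 0.604, and the tubulin gene Tubb2b at 0.641. Greb1, Skp2 and Tubb2b had IE-Cpr-null arrays all below the WT arrays, and Angptl4, Sgk1 and Tspan12 did not. Differences of the 6 ran from -1.83 for Greb1 to -0.89 for Tubb2b, and 0 of them passed in limma (adjusted p from 0.190 to 0.596). They were picked for their likeness to a probe set with lower IE-Cpr-null values, so their directions are no separate result.

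**Figure D5:**
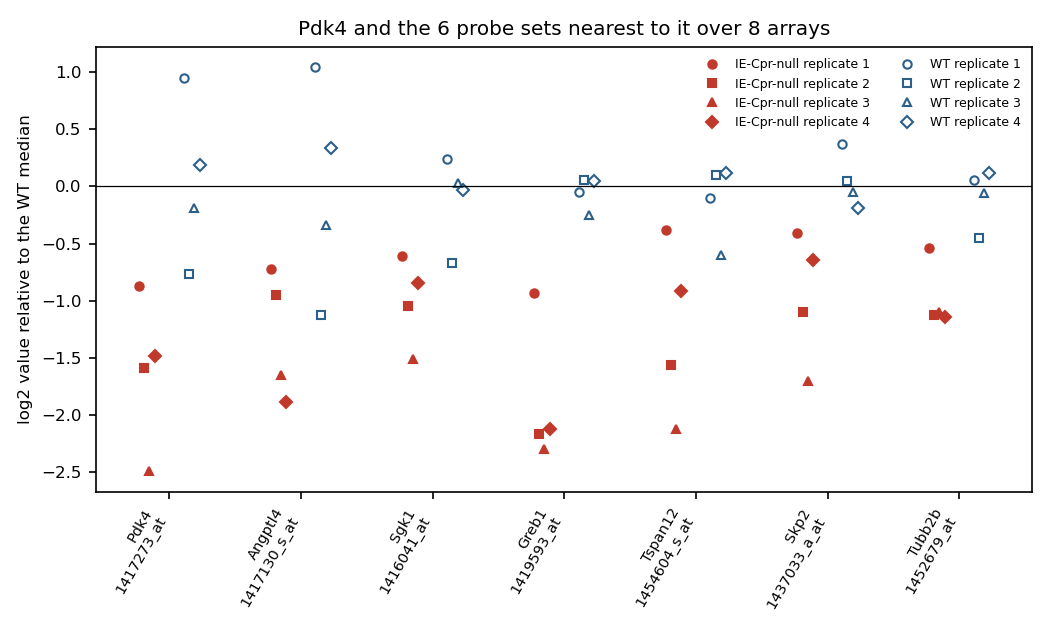
The vertical axis gives the log2 value relative to the WT median on each array for Pdk4 and the 6 probe sets nearest to it, with filled red symbols for IE-Cpr-null and open blue symbols for WT. Pdk4, Angptl4 and Sgk1 have their lowest WT value on array 2 (open square), at -0.76, -1.12 and -0.67.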

How the data were processed

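Enterocyte RNA of 8 arrays, 4 per genotype, was measured on single-colour arrays after biotin labelling, per the labels' protocols. The authors deposited log2 values per probe set and array, made with GCRMA per the submitters' processing notes (version not stated there). The 4 WT values of each of the 18443 probe sets had a median of 0 (tolerance 1e-05). The log base was taken as 2, the base GCRMA gives. Levels, signal over background and dim probe sets are thus unknown. The number of arrays limits the precision. No scan, litter or extraction batch is given.

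Probe sets were named from the platform annotation: 16689 carried 1 gene symbol, 616 several and 1138 were not named in it. Each probe set was tested with limma 3.58.1 in R 4.3.3 (lmFit, eBayes with a constant prior of 1.54 degrees of freedom, two-sided) on the group means, with Benjamini-Hochberg adjustment over all 18443 and a threshold of 0.05. Other pathway genes and cell markers came from fixed lists. Named were all probe sets of the 9 genes, up to 5 genes per pathway list by unadjusted p, 10 listed genes where measured, and the 6 probe sets nearest to Pdk4. The genes and lists were chosen with earlier results of these data known. Alternatives were quantile normalization, median centring, array weights, the replicate number as a block, a robust prior, each array left out, and the muscle-rich (WT 2, IE-Cpr-null 1) or hepatocyte-rich arrays (IE-Cpr-null 2 and 3) left out. The fit was tested on simulated data of 18443 probe sets, where 35 of 50 changes of 1.5-fold and 47 of 50 of 2-fold were recovered, with 12 false among 189 calls. The simulated noise was normal and independent between probe sets, without the uneven marker content of these arrays. These rates therefore do not give the share of changes found in the real table, where 4 probe sets passed. Upstream sequences came from RefSeq (GRCm38.p6), in which 8 of the 9 genes were used.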

Additional observations from a re-analysis of the deposited data

Results flagged for a closer look

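In 5 of the 32 groups of 4 arrays behind the 16 probe sets, 1 array stood far from the other 3 by Dixon's ratio. The rate of about 1 in 20 set by its threshold is for independent groups of normal values. These groups share arrays, and some share a gene, and the rate over all probe sets was not counted. Whether 5 is many is therefore unknown. WT array 3 accounted for 3 of them. On that array Cpt2 probe set 1416772_at was -0.19, with the other WT arrays between -0.0017 and 0.0094. Acaa2 probe set 1428145_at was -0.47 there, with the others between -0.0025 and 0.028. Acaa2 probe set 1455061_a_at was -0.66 there, with the others between -0.029 and 0.048. IE-Cpr-null array 3 was -0.27 in Cpt2 probe set 1447820_x_at, with the other IE-Cpr-null arrays between 0.011 and 0.047. WT array 1 was 0.38 in Hadhb probe set 1437172_x_at, with the other WT arrays between -0.030 and 0.019.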

How the results depend on the processing

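The Pdk4 difference of -1.65 passed an adjusted p of 0.05 in limma only with array weights (-1.56, adjusted p = 0.0346) among 15 alternatives, over which its adjusted p reached 0.97 (quantile normalization). It ran from -1.92 to -1.35 with 1 array left out. Array weights gave 5 calls among the 16 probe sets (Pdk4, Cpt1a, Acadvl and 2 of Acaa2) and 15 among the other pathway probe sets, where the whole table had 741 calls (4.02%) in place of 4. That setting gave IE-Cpr-null array 4 a weight of 6.49 and IE-Cpr-null array 1 one of 0.329. The other 14 alternatives gave 0 calls among the 16, and 0 to 1 among the other pathway probe sets, the 1 being Dlat without IE-Cpr-null array 1. The median difference over the 16 ran from -0.18 to -0.14 over all alternatives, and from -0.18 to -0.14 with 1 array left out. Among the 16, 14 kept their direction in every alternative. Cpt1a 1438156_x_at turned to 0.0054 without IE-Cpr-null array 3 (from -0.16 with 1 array left out), and Hadhb 1437172_x_at to -0.019 without the muscle-rich arrays. The cause was not tested. The labels give no pairing of the genotypes beyond the array numbers, and whether same-numbered arrays were handled together is unknown. Deviations of same-numbered arrays correlated at -0.058, -0.041, 0.26 and 0.13, and 4 of 8 arrays correlated best with their own number. With the replicate block the SE of Pdk4 was 0.266 in place of 0.438 (limma unadjusted p = 0.00319, adjusted p = 0.387). That of Cpt1a 1460409_at was 0.106 in place of 0.0963, and 0 of the 16 passed. Signal over background is unknown, so the small differences of Acadm and Hadha cannot be set against their brightness.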
